A study of Homo sapiens with 4 samples.

Results

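The kinesin family comprises the motor proteins that use ATP to move along, or to shorten, microtubules. Its genes were taken as all genes with a single symbol on the array that begins with KIF followed by a number, or is KIFC1, KIFC2 or KIFC3, and each gene was read from its feature with the highest mean. This gave 41 genes of 18417. By textbook role 13 were grouped as mitotic kinesins, 17 as transport kinesins and 11 as other kinesins. KIF4B, a close copy of KIF4A, is not among them because its only feature is shared with KIF4A.

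RNA came from HCE cells, which the labels describe as a cell line in an undifferentiated state, in a study of Kruppel-like factors in the corneal epithelium. The cells received an siRNA pool against the zinc finger factor KLF7 (siKLF7, 2 arrays) or a non-targeting scramble control pool (scramble control, 2 arrays). The labels give 100000 cells to a well, 20 nM of siRNA and harvest at 48 hours. The knockdown was transient and in a single line. Nothing in the labels tells whether paired arrays of a group came from different cultures, so the p-values reflect spread between arrays that may be technical.

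In dividing cells, mitotic kinesins push spindle poles apart, move and align chromosomes and organise the midzone at which the daughter cells separate, and many of their genes are switched on late in the cell cycle. Transport kinesins carry vesicles, organelles, mRNAs and the components of cilia towards the ends of microtubules, in neurons and epithelia alike. The corneal epithelium renews itself through division of its basal cells, so mitotic kinesins there mark cycling cells.

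Levels are given as log2(signal + 16), differences as siKLF7 minus scramble control on that scale, and a gene was said to pass when limma's adjusted p over all genes was below 0.05. KLF7 itself stood at 10.56 and 10.15 in the siKLF7 arrays, against 12.19 and 11.52 in scramble control replicates 1 and 2. The groups did not overlap, and KLF7 differed by -1.50 with 4 arrays (SE 0.28, limma adjusted p = 0.639). It fell by 1.16 against scramble control replicate 2 (SE 0.13, limma adjusted p = 1.2e-09) and by 1.83 against scramble control replicate 1 (SE 0.13, limma adjusted p = 4.95e-23). By exact permutation (two-sided) p was 0.333, and no smaller value is possible with 2 arrays in each group. Across genes, r was 0.934 to 0.938 between scramble control replicate 1 and each other array, but 0.994 for the siKLF7 pair. In that control, 551 of all 18417 genes stood at least 2-fold below the mean of the other 3 arrays. Among these were 6 of 11 corneal epithelial markers. The keratin KRT12, for example, stood at 11.26 and 11.62 in the siKLF7 arrays, against 6.39 and 10.63 in scramble control replicates 1 and 2. PAX6, a regulator of corneal identity, was at 11.31 and 11.37 in the siKLF7 arrays, against 10.37 and 11.07. Of 11 fibroblast markers 2, POSTN and THY1, were at least 2-fold higher in that control, as were 389 of all 18417 genes. LUM and FBN1 of that list were lower by 0.73 and 0.75, and its median was 0.18 above the mean of the other arrays. The main kinesin results are therefore given with all 4 arrays and against each control alone. The comparisons share the siKLF7 arrays and are not independent. In a fit against 1 control the spread comes from the siKLF7 pair over all genes, pooled by intensity, and hardly from a gene's own arrays. That control is taken to vary likewise, so these p-values do not rest on a gene's own replicates.

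Of the 3 classes, mitotic kinesins had the most members with higher values after KLF7 knockdown. For 7 of 13 mitotic kinesins both siKLF7 arrays exceeded both controls, against 16.3% of all genes, and 2 were below both, against 28.9% of all genes. Their median difference was 0.19 with 4 arrays, 0.36 against scramble control replicate 2 and 0.18 against scramble control replicate 1, while the median of all genes was -0.048, -0.040 and -0.055 in the same 3 comparisons. With 4 arrays 0 of the 41 kinesins passed, as for 0% of all genes. At an unadjusted p under 0.05, 3 mitotic kinesins were higher and 1 was lower by limma, against 1.9% and 3.9% of all genes. Against scramble control replicate 2, 4 of 13 mitotic kinesins rose and 0 fell, where 0.885% of all genes rose and 0.69% fell. Those 4 were KIF18A, KIF15, KIF20B and KIF11. At an unadjusted p under 0.05 in that fit, 8 mitotic kinesins were higher and 0 lower, against 5.04% and 6.24% of all genes. With scramble control replicate 1 as the only control, 11 of 41 kinesins passed, as did 26.8% of all genes. Of these, 2 mitotic kinesins rose and 1 fell, where 13.4% of all genes rose and 13.4% fell. Markers of cell type also moved in the fit against scramble control replicate 2, where 9 of 11 corneal epithelial markers were above 0. Furthest were KRT15 by 0.85, KRT12 by 0.81, ALDH3A1 by 0.65, KRT3 by 0.57 and CLU by 0.53, while CDH1 and EPCAM stood at -0.019 and -0.025. Of all 18417 genes, 7769 were above 0 in that comparison. Of 11 fibroblast markers 5 were above 0 there, furthest POSTN by 0.86 and LUM by 0.64, both dim in these arrays. POSTN had signals of 77.4 and 44.1 in the siKLF7 arrays, against 25.4 in scramble control replicate 2. LUM had 63.5 and 62.4, against 34.6. The part of these differences in the kinesin values was not tested. In bulk RNA, fewer cells of a type and less RNA per cell cannot be told apart.

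**Figure D1:**
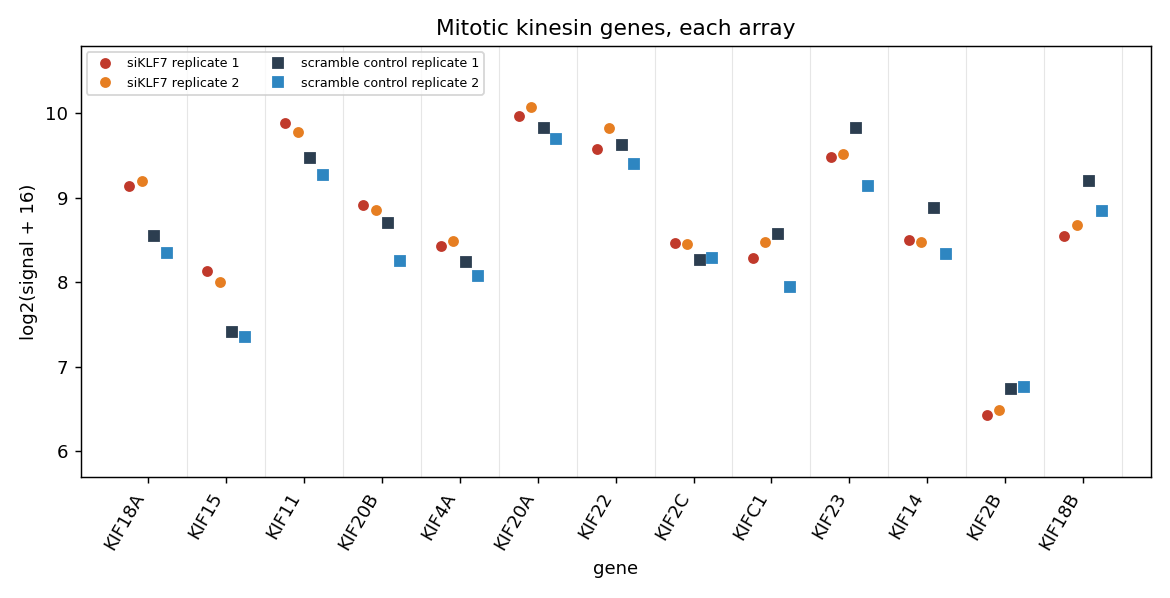
Level of each mitotic kinesin gene, as log2(signal + 16), in each of 4 arrays. Circles are siKLF7 arrays and squares are scramble control arrays. Genes are ordered by their 4-array difference, from KIF18A at 0.72 to KIF18B at -0.41, and heights of different genes are not comparable because each comes from its own probes.

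The stretches before these genes are shown because most of the mitotic kinesin genes hold the same short run of letters there. Windows from 250 bases before to 50 bases after each annotated start were available for 33 of the 41 genes (RefSeq, GRCh38.p14). The windows were searched on both strands for TTTGAA, the core of the element named cell cycle genes homology region in promoters of late cell cycle genes. They were also searched for CCAAT, known as the CCAAT box. The third motif was CACCC, a box that Kruppel-like factors bind. Only these exact letters were searched, so other forms of such sites were not counted. No match to 1 motif overlapped a match to another. Of 13 mitotic kinesins 9 held TTTGAA, each within 60 bases of the start, against 1 of 12 transport kinesins and 0 of 8 other kinesins. TTTGAA was chosen as a motif of late cell cycle genes and the class by mitotic role, so these counts are no independent support. KIF20A, KIF22, KIF2B and KIF2C held no TTTGAA. Both siKLF7 arrays lay above both controls for KIF20A and KIF2C and below both for KIF2B, while KIF22 overlapped them. Counted by window, the share with TTTGAA was 64.3% of 14 mitotic windows and 5.88% of 17 transport windows, against 15.2% of all 35116 windows. CCAAT was found in 71.4% of mitotic and 29.4% of transport windows, against 34.6% of all windows. CACCC was found in 42.9% of mitotic and 64.7% of transport windows, against 59.9% of all windows. Of 13 mitotic genes 8 held both TTTGAA and CCAAT, against 1 of 12 transport and 0 of 8 other kinesins. The share of all windows with both motifs, or with TTTGAA within 60 bases of the start, is not given here. A match describes letters only and does not show binding.

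Stretches from 150 bases before to 25 bases after the start are printed for KIF18A, KIF15 and KIF11, which rose against scramble control replicate 2, for KIF4A, for KIF18B, whose values went the other way, and for the transport kinesin KIF3C, which differed most between the controls. These genes were chosen after their values were seen. Capitals mark matches to the 3 motifs on either strand. The stretches lie at chr11:28108132-28108306 (minus strand) for KIF18A, chr3:44761644-44761818 (plus strand) for KIF15, chrX:70289954-70290128 (plus strand) for KIF4A, chr10:92592980-92593154 (plus strand) for KIF11, chr17:44947749-44947923 (minus strand) for KIF18B and chr2:25982473-25982647 (minus strand) for KIF3C.
KIF18A: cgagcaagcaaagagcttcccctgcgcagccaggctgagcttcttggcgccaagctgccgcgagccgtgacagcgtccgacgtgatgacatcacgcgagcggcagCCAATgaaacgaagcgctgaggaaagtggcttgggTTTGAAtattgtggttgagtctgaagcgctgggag
KIF15: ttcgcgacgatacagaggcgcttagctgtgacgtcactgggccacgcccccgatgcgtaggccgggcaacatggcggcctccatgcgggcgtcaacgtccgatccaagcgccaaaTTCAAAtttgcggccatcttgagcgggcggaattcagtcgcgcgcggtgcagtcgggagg
KIF4A: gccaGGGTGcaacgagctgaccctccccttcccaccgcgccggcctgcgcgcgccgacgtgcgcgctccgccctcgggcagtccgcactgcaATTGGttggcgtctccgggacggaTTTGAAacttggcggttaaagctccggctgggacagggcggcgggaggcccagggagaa
KIF11: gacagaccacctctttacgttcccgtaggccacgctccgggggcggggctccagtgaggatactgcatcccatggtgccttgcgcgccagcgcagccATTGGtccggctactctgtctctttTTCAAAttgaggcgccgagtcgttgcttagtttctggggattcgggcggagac
KIF18B: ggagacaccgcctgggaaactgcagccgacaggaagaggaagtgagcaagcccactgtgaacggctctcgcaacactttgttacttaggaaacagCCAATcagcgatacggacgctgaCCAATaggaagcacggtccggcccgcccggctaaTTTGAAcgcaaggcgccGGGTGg
KIF3C: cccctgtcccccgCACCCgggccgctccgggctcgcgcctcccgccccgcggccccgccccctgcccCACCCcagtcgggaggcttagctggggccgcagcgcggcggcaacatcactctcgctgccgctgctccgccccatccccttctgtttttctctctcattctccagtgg
Counted from the start, the leftmost base of the TTTGAA match lay at -10 in KIF18A, -35 in KIF15, -28 in KIF11, -34 in KIF4A and 2 in KIF18B. KIF20B, not printed, held TTTGAA at 24 and 30 and CCAAT at -131 and -98. In its whole window KIF3C held no TTTGAA and no CCAAT, but 4 matches to CACCC, while KIF18A, KIF15 and KIF11 held no exact CACCC. KIF18B held 2 and KIF4A 1, and KIFC1, not printed, held 5. KIF18B carried the same pair of motifs as KIF18A and differed from it in the direction of its values.

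Among the motors that act on spindle and chromosomes, KIF18A, which shortens microtubule plus ends at kinetochores and damps chromosome movement, had the largest difference of all 41 genes in the upward direction with 4 arrays. Its levels were 9.14 and 9.19 in the siKLF7 arrays, against 8.54 and 8.34 in scramble control replicates 1 and 2. The groups were apart, with the siKLF7 pair close together. The mean signal was 559 ± 15.6 in siKLF7 and 333 ± 34.4 in scramble control arrays (SD, n = 2 each). KIF18A differed by 0.72 with 4 arrays (SE 0.14, limma adjusted p = 0.639). It rose by 0.82, or 1.77-fold, against scramble control replicate 2 (SE 0.16, limma adjusted p = 0.00054) and by 0.62 against scramble control replicate 1 (SE 0.16, limma adjusted p = 0.0017).

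KIF15 is a plus-end motor that helps to keep the spindle bipolar. It stood at 8.13 and 8.01 in the siKLF7 arrays, against 7.41 and 7.35 in scramble control replicates 1 and 2. Here the controls were close to each other and both lay below both siKLF7 arrays. The mean signal was 253 ± 16.5 in siKLF7 and 150 ± 4.77 in scramble control arrays (SD, n = 2 each). KIF15 differed by 0.69 with 4 arrays (SE 0.12, limma adjusted p = 0.639), by 0.72 against scramble control replicate 2 (SE 0.16, limma adjusted p = 0.0036) and by 0.66 against scramble control replicate 1 (SE 0.16, limma adjusted p = 0.00072). KIF15 and KIF18A were the 2 mitotic kinesins that rose against each control alone.

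KIF11 crosslinks and slides antiparallel microtubules and is needed to separate the spindle poles. It was at 9.88 and 9.78 in the siKLF7 arrays, against 9.47 and 9.26 in scramble control replicates 1 and 2, again without overlap. The difference was 0.46 with 4 arrays (SE 0.15). KIF11 rose by 0.56 against scramble control replicate 2 (SE 0.15, limma adjusted p = 0.033) and stood 0.36 above scramble control replicate 1 (SE 0.15, limma adjusted p = 0.069), which did not pass. The call against scramble control replicate 2 was lost when no intensity trend was fitted (limma adjusted p = 0.084).

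KIF20B, a motor of the midzone that acts in cytokinesis, was at 8.91 and 8.85 in the siKLF7 arrays, against 8.70 and 8.25 in scramble control replicates 1 and 2. Both siKLF7 values lay above both controls, but scramble control replicate 1 was nearer to them than to its partner. KIF20B rose by 0.63 against scramble control replicate 2 (SE 0.16, limma adjusted p = 0.019). It differed by 0.41 with 4 arrays and by 0.18 against scramble control replicate 1 (SE 0.16, limma adjusted p = 0.44), so its call rested on the control used.

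KIF20A, which brings the chromosomal passenger complex to the midzone, was at 9.96 and 10.07 in the siKLF7 arrays, against 9.82 and 9.69 in scramble control replicates 1 and 2. KIF4A, a chromosome-bound motor that sets midzone length, was at 8.43 and 8.49, against 8.24 and 8.07 in the same controls. KIF2C, which removes faulty kinetochore attachments by depolymerising microtubules, was at 8.46 and 8.45, against 8.26 and 8.28. None of these 3 genes had overlapping groups, and their 4-array differences were 0.26 (SE 0.14), 0.31 (SE 0.13) and 0.18 (SE 0.12). Against scramble control replicate 2 they were 0.32, 0.39 and 0.17, and against scramble control replicate 1 0.20, 0.22 and 0.19. None passed. The feature shared by KIF4A and KIF4B differed by 0.06 with 4 arrays.

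For 4 further mitotic kinesins at least 1 siKLF7 value lay between the controls. KIF23, the motor subunit of centralspindlin, stood at 9.49 and 9.52 in the siKLF7 arrays, against 9.82 and 9.14 in scramble control replicates 1 and 2. KIFC1, a minus-end motor that focuses spindle poles, stood at 8.29 and 8.47, against 8.57 and 7.94. KIF22, a motor bound to chromosome arms, stood at 9.57 and 9.83, against 9.62 and 9.40, and overlapped them. For KIF23 and KIFC1 both siKLF7 arrays were above scramble control replicate 2 and below scramble control replicate 1, so the sign of the difference depended on the control. The differences were 0.36 and -0.32 for KIF23 and 0.44 and -0.19 for KIFC1 against scramble control replicates 2 and 1, and none passed. The same held for KIF14, a motor of late cytokinesis, with 0.15 and -0.39. The 2 features of KIF22 and the 2 of KIFC1 gave 4-array differences within each gene of 0.19 and 0.19, and 0.13 and 0.13.

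A pair of mitotic kinesins had both siKLF7 values below both controls. KIF18B, a relative of KIF18A that shortens astral microtubules, was at 8.54 and 8.68 in the siKLF7 arrays, against 9.19 and 8.84 in scramble control replicates 1 and 2. It differed by -0.41 with 4 arrays (SE 0.18) and by -0.23 against scramble control replicate 2 (limma adjusted p = 0.62), and fell by 0.58 against scramble control replicate 1 (SE 0.16, limma adjusted p = 0.0037). The second KIF18B feature differed by -0.38 with 4 arrays, -0.11 against scramble control replicate 2 and -0.65 against scramble control replicate 1. KIF2B, a microtubule depolymerase, was dim, with a mean signal of 71.7 ± 2.57 in siKLF7 and 91.1 ± 1.15 in scramble control arrays (SD, n = 2 each). Its difference was -0.29 with 4 arrays (SE 0.10), -0.30 against scramble control replicate 2 and -0.28 against scramble control replicate 1, and it passed in no comparison.

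The control arrays themselves differed over this class. Scramble control replicate 1 was above scramble control replicate 2 for 11 of 13 mitotic kinesins, with a median difference of 0.20, while the median over all genes was -0.0057. The siKLF7 arrays differed from each other by a median of 0.055 over the same 13 genes. Both siKLF7 arrays were above scramble control replicate 2 for 11 of 13 (29.7% of all genes) and above scramble control replicate 1 for 7 of 13 (35.2% of all genes).

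Transport kinesins were divided in sign. With 4 arrays 8 of 17 had a difference above 0, as did 7698 of all 18417 genes, and the median was -0.0077. In both siKLF7 arrays 5 lay above both controls (16.3% of all genes) and 6 below both (28.9% of all genes). Relative to scramble control replicate 2, both siKLF7 arrays were above for 7 of 17 (29.7% of all genes) and below for 8 (44.6% of all genes). Relative to scramble control replicate 1, they were above for 7 (35.2% of all genes) and below for 9 (48.2% of all genes). The median was -0.069 against scramble control replicate 2 and -0.081 against scramble control replicate 1. In limma 0 of 17 passed against scramble control replicate 2 and 1 had an unadjusted p under 0.05, with 1.57% of all genes passing. When set against scramble control replicate 1, 0 rose and 4 fell, with 13.4% of all genes falling. The mitotic median was higher than the transport median by 0.20 with 4 arrays, by 0.43 against scramble control replicate 2 and by 0.26 against scramble control replicate 1. This contrast has no test, because genes are not replicates of a condition.

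**Figure D2:**
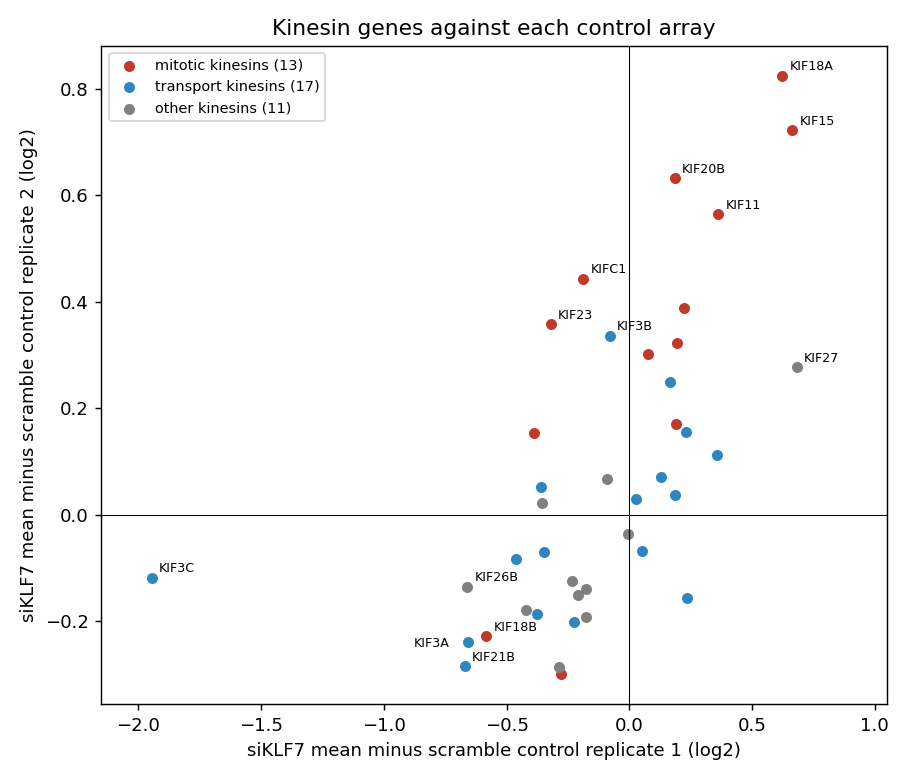
Difference of the siKLF7 mean from scramble control replicate 1 (x axis, log2) and from scramble control replicate 2 (y axis, log2) for 41 kinesin genes, coloured by class. KIF18A and KIF15 lie at the upper right, above both controls, while KIF3C lies far to the left at -1.95 against scramble control replicate 1 and at -0.12 against scramble control replicate 2. Both axes use the same siKLF7 arrays.

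KIF3A, KIF3B and KIF3C form the heterodimers that carry cargo along cilia and axons, KIF3A pairing with either of the others in mouse. KIF3C was at 7.97 and 7.95 in the siKLF7 arrays, against 9.91 and 8.08 in scramble control replicates 1 and 2. Scramble control replicate 1 alone was high, and the other 3 arrays were close together. The mean signal was 234 ± 2.36 in siKLF7 and 600 ± 488 in scramble control arrays (SD, n = 2 each). KIF3C fell 3.85-fold against scramble control replicate 1 (log2 -1.95, SE 0.16, limma adjusted p = 2.9e-18), but differed by -0.12 against scramble control replicate 2 (SE 0.16, limma adjusted p = 0.81). It was the only 1 of 41 kinesins at least 2-fold away from the mean of the other arrays in scramble control replicate 1. By the same cut, 551 of all 18417 genes lay below the mean and 389 above it in this array. That array also held the highest value of the tubulin gene TUBA1A, at 12.47, against 9.45 to 9.48 in the siKLF7 arrays and 9.42 in scramble control replicate 2. SYT1, a neuron marker, was at 9.62 there and at 6.16 to 6.29 in the other arrays. Another neuron marker, MAP2, was at 6.12 there and at 8.36 to 8.49 in the others. Over 11 neuron markers the summed signal was 1974 and 1878 in the siKLF7 arrays, against 2297 and 2051 in scramble control replicates 1 and 2. SYT1 alone gave 771 of the sum in scramble control replicate 1. It gave 62.0 in scramble control replicate 2 and 62.4 and 55.5 in the siKLF7 arrays. Over the list, the median of scramble control replicate 1 minus the mean of the other 3 arrays was -0.017. The part of other cells in the KIF3C value was not tested.

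KIF3A was at 8.09 and 7.87 in the siKLF7 arrays, against 8.64 and 8.22 in scramble control replicates 1 and 2. Its groups did not overlap, and it differed by -0.45 with 4 arrays (SE 0.19), -0.24 against scramble control replicate 2 (limma adjusted p = 0.60) and -0.66 against scramble control replicate 1 (limma adjusted p = 0.00097). KIF3B had signals of 301 and 315 in the siKLF7 arrays, against 327 and 241 in the same controls, so that both siKLF7 values lay between the controls. It differed by 0.34 against scramble control replicate 2 and -0.081 against scramble control replicate 1, and neither passed. The 3 partners did not share a sign against scramble control replicate 2.

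KIF21B, a neuronal motor that also alters microtubule growth, was at 7.30 and 7.29 in the siKLF7 arrays, against 7.96 and 7.58 in scramble control replicates 1 and 2. Both siKLF7 values were below both controls, with a difference of -0.48 (SE 0.17), of -0.28 against scramble control replicate 2 (limma adjusted p = 0.51) and of -0.67 against scramble control replicate 1 (limma adjusted p = 0.00055). Its relative KIF21A differed by 0.19 with 4 arrays, 0.16 against scramble control replicate 2 and 0.23 against scramble control replicate 1. KIF1C, a carrier of dense-core vesicles and integrins, was at 10.22 and 10.43 in the siKLF7 arrays, against 10.79 and 10.41. One siKLF7 array lay above scramble control replicate 2, and KIF1C fell by 0.46 against scramble control replicate 1 alone (limma adjusted p = 0.0059).

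KIF5B, the heavy chain of conventional kinesin in most tissues, hardly varied between arrays. Its levels were 12.13 and 12.20 in the siKLF7 arrays, against 12.03 and 12.09 in scramble control replicates 1 and 2, a difference of 0.10 (SE 0.10, limma adjusted p = 0.70). The neuronal heavy chains KIF5A and KIF5C differed by 0.23 and 0.11 with 4 arrays, and the second KIF5A feature by -0.16, so the direction for KIF5A depended on the feature. The vesicle carriers KIF1A and KIF1B differed by -0.21 and -0.15, and the endosomal motors KIF13A and KIF16B by 0.029 and 0.21. KIF13B, which binds membrane scaffold proteins, differed by -0.0077, and KIF17, a dendritic and ciliary motor, by -0.28. The minus-end motors KIFC2 and KIFC3 differed by 0.039 and -0.21. For these 10 genes besides KIF5B, differences against scramble control replicate 2 ranged from -0.20 for KIF1A to 0.25 for KIF16B. Those against scramble control replicate 1 ranged from -0.38 for KIF17 to 0.36 for KIF5A. Neither KIF5B nor any of the 10 passed in any of the 3 comparisons.

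**Figure D3:**
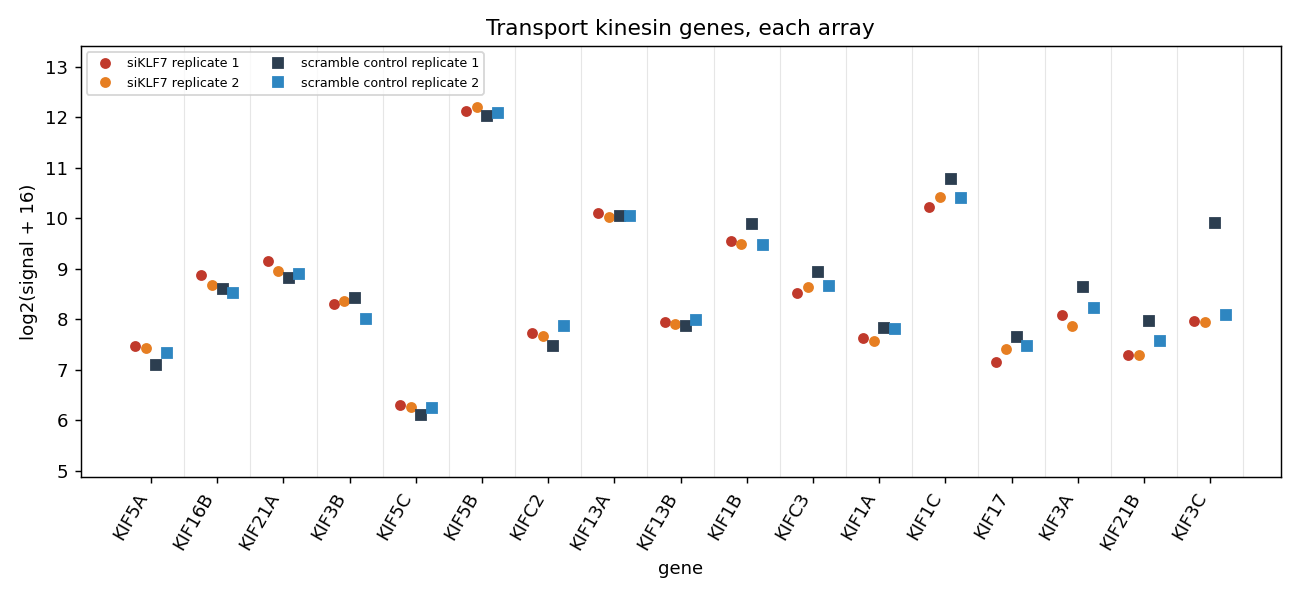
Level of each transport kinesin gene, as log2(signal + 16), in each of 4 arrays. Circles are siKLF7 arrays and squares are scramble control arrays, with genes ordered by their 4-array difference from KIF5A at 0.23 to KIF3C at -1.03. In KIF3C scramble control replicate 1 stands alone at 9.91.

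The 11 other kinesins had a median of -0.18 with 4 arrays, and 1 of them had a difference above 0, as did 7698 of all 18417 genes. Of the 11, 7 had siKLF7 values under those of both controls (28.9% of all genes) and 1 was above both. In limma 0 passed against scramble control replicate 2, and 1 rose and 3 fell against scramble control replicate 1 (13.4% and 13.4% of all genes). The gene above 0 was KIF27, a relative of KIF7 needed for motile cilia in mouse, at 8.65 and 8.46 in the siKLF7 arrays, against 7.88 and 8.28 in scramble control replicates 1 and 2. It differed by 0.48 with 4 arrays (SE 0.19) and by 0.28 against scramble control replicate 2 (limma adjusted p = 0.53), and rose by 0.68 against scramble control replicate 1 (limma adjusted p = 0.00061). The 2 features that KIF27 shares with another gene symbol each differed by 0.28 with 4 arrays. KIF7, a regulator of Hedgehog signalling at the ciliary tip, was at 7.24 and 7.29 in the siKLF7 arrays, against 7.69 and 7.45. Its difference was -0.30 with 4 arrays and -0.18 against scramble control replicate 2, and it fell by 0.42 against scramble control replicate 1 (limma adjusted p = 0.041).

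KIF26B, an atypical kinesin of cell adhesion and polarity, was at 7.57 and 7.66 in the siKLF7 arrays, against 8.28 and 7.75 in scramble control replicates 1 and 2. The difference was -0.40 with 4 arrays and -0.14 against scramble control replicate 2, and KIF26B fell by 0.66 against scramble control replicate 1 (limma adjusted p = 0.00075). KIF2A, a microtubule depolymerase, was at 10.61 and 10.45, against 10.88 and 10.51, and its groups overlapped. Its relatives KIF2B and KIF2C, also depolymerases, were grouped as mitotic kinesins and KIF2A was not, so counts for both classes depend on that choice. KIF2A differed by 0.022 against scramble control replicate 2 and fell by 0.35 against scramble control replicate 1 (limma adjusted p = 0.034). That call was lost when no intensity trend was fitted (limma adjusted p = 0.094). The remaining 7 of these genes, KIF6, KIF9, KIF12, KIF19, KIF24, KIF25 and KIF26A, ranged from -0.29 for KIF19 to -0.012 for KIF24 with 4 arrays, and none passed in any comparison. KIF6 was the dimmest, with a mean signal of 47.6 ± 0.953 in siKLF7 and 56.1 ± 3.92 in scramble control arrays (SD, n = 2 each).

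Partners of the mitotic kinesins were above 0 in 19 of 20 cases against scramble control replicate 2, the exception being NUMA1 at -0.018. Of all 18417 genes, 7769 were above 0 there. Scramble control replicate 1 itself was above scramble control replicate 2 for 17 of these 20 partners, with a median difference of 0.36. Over 20 spindle and midzone partners the median was 0.15 with 4 arrays, 0.31 against scramble control replicate 2 and -0.027 against scramble control replicate 1. With the second control alone, 2 rose and 0 fell (0.885% and 0.69% of all genes). NUSAP1, which bundles spindle microtubules, rose by 0.56 (SE 0.14, limma adjusted p = 0.016), and CENPE, a kinesin of the kinetochore named outside the KIF series, by 0.59 (SE 0.16, limma adjusted p = 0.037). ANLN, a cytokinetic scaffold, and HMMR, a spindle assembly factor, stood at 0.44 and 0.56 against that control and did not pass. In the fit against scramble control replicate 1, 2 rose and 2 fell (13.4% and 13.4% of all genes), and HMMR rose by 0.72.

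Of 21 proliferation genes 5 rose, and none fell, relative to scramble control replicate 2 (0.885% and 0.69% of all genes), with 18 above 0 and a median of 0.27. The median was 0.22 with 4 arrays, where 0 passed, and 0.087 against scramble control replicate 1, where 15 were above 0, 4 rose and 0 fell (13.4% and 13.4% of all genes). The mitotic cyclins CCNB2 and CCNB1 rose by 0.62 and 0.61 against scramble control replicate 2, the checkpoint kinase TTK by 0.68 and the topoisomerase TOP2A by 0.58. MKI67, a marker of cycling cells, was at 10.27 and 10.31 in the siKLF7 arrays, against 10.55 and 9.85 in scramble control replicates 1 and 2, between the controls. The summed signal of the proliferation list was 17724 and 18645 in the siKLF7 arrays, against 16573 and 14740 in scramble control replicates 1 and 2. Scramble control replicate 1 itself was above scramble control replicate 2 for 15 of these 21 genes, with a median difference of 0.26. Of all 18417 genes, 7769 were above 0 against scramble control replicate 2 and 7929 against scramble control replicate 1. The part of the number of cycling cells in the kinesin values was not tested.

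Other microtubule lists had medians nearer to that of all genes against scramble control replicate 2. Over 16 kinesin light chains and cargo adaptors the median against scramble control replicate 2 was 0.0027. The light chain KLC2 differed by -0.36 with 4 arrays and by -0.25 against scramble control replicate 2, and the adaptors MAPK8IP2, PLEKHM2 and TRAK2 by -0.35, 0.18 and 0.21 against that control. The 19 cytoplasmic dynein and dynactin genes had a median of 0.074 against the same control. DCTN3, a dynactin subunit, differed by 0.22, and the dynein chains DYNLL2, DYNC1LI1 and DYNLT3 by 0.24, 0.18 and 0.21. The 16 tubulin genes had a median of -0.035, and TUBG2, TUBD1, TUBE1 and TUBB2B differed by 0.23, -0.21, -0.20 and -0.18 against scramble control replicate 2. Set against scramble control replicate 1, these 3 lists had 1, 4 and 3 genes that rose and 1, 2 and 5 that fell, beside 13.4% and 13.4% of all genes.

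**Figure D4:**
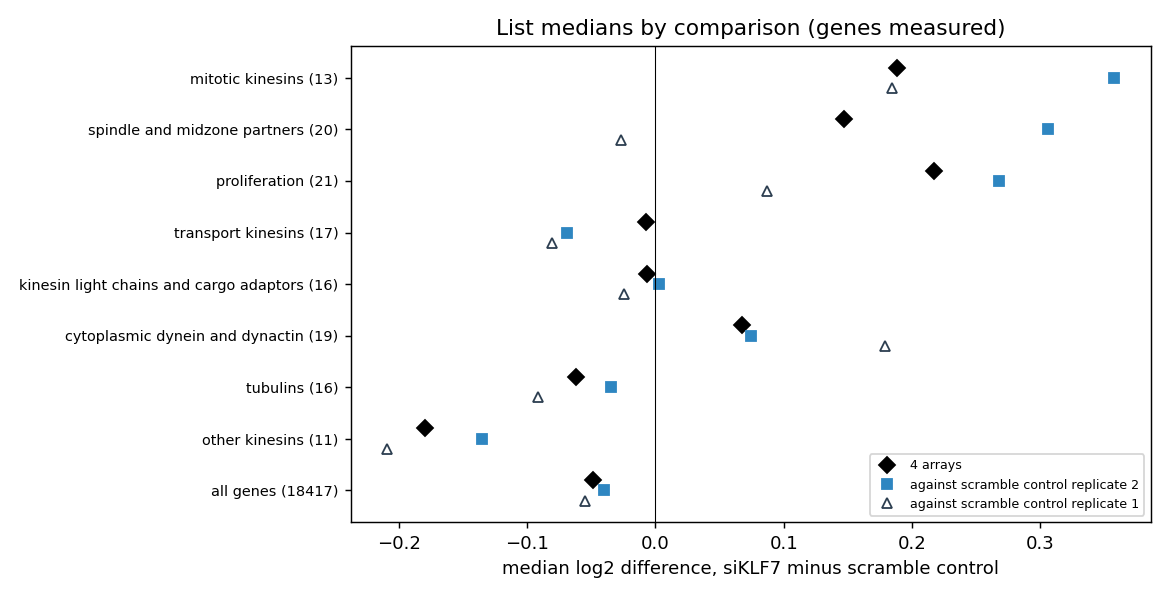
Median log2 difference, siKLF7 minus scramble control, of each list of genes with 4 arrays (diamonds), against scramble control replicate 2 (squares) and against scramble control replicate 1 (open triangles), with the number of genes measured in brackets. Mitotic kinesins lie above 0 in all 3 comparisons, at 0.19, 0.36 and 0.18, as do proliferation genes and the dynein list, while spindle partners do so in 2 of them.

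Markers of other cells were compared in the same way. Of 10 multiciliated cell markers 0 passed in any comparison, with summed signals of 1477 and 1528 in the siKLF7 arrays, against 1601 and 1608 in scramble control replicates 1 and 2. Summed fibroblast markers were 3287 and 3126 in the siKLF7 arrays, against 4495 and 2673, leukocyte markers 1594 and 1625, against 2116 and 1772, and endothelial markers 1221 and 1315, against 1551 and 1418. Single bright genes made up much of these sums. VIM gave 2005 and 1843 of the fibroblast sums, against 1992 and 1466. CD68 gave 990 and 986 of the leukocyte sums, against 1419 and 1130. CDH5 gave 589 and 612 of the endothelial sums, against 741 and 659. The sums are therefore no measure of the amount of each cell type. The part of such cells in the kinesin values was not tested.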

How the data were processed

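The deposited values are linear array intensity, 1 value per array for each of 33297 features. Per the submitters' processing notes, Affymetrix Expression Console 1.1.1 and PLIER 2.0 were used, and normalization between arrays and the genome build are not given in the sources used here. Platform annotation gave 1 symbol for 19460 features, or 18417 genes, with the highest-mean feature taken for each of 769 genes with several. The median deposited signal per array ranged from 185 to 194, and the number of arrays limits the precision. Features that share 2 genes were not used for levels.

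Values were analysed as log2(signal + 16), with no further normalization, in limma 3.58.1 (R 4.3.3), using lmFit and then eBayes with its prior variance following intensity. All genes entered the Benjamini-Hochberg adjustment. The pseudocount shrinks differences of dim genes. The 4-array fit had 2 residual degrees of freedom. Each fit against 1 control had 1, from the siKLF7 pair, and the resulting spread was applied to the single control as well. Prior degrees of freedom were 2.63 with 4 arrays, 74.2 against scramble control replicate 2 and 86.2 against scramble control replicate 1. In the fits against 1 control the spread was therefore almost wholly that of the prior, shared by genes of like intensity.

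The members and lists were chosen with earlier results of these data known. Values in every array are given for kinesins that passed in any fit or differed by at least 0.3 with 4 arrays or against scramble control replicate 2, for KLF7, and for others where noted by role. From each other list up to 4 genes with the smallest p were named. MKI67, NUMA1, TUBA1A and the cell type markers given with values were singled out after their values were seen. A test on simulated data with 200 of 18417 genes changed recovered 2% of log2 changes of 1 and 49% of changes of 2 with 4 arrays. Noise there was drawn from each gene's own variance. The same test against scramble control replicate 2 drew its noise from limma's pooled variances and gave the lone control that same spread. Its recovery was set by that choice, is not comparable with that of 4 arrays and cannot show how real calls fare. With 2 pairs of replicate numbers, deviations from group means correlated at -0.04. That value cannot settle pairing, because scramble control replicate 1 stood apart from every other array. The numbers were not taken to pair the samples, and a fit that pairs them is given in the closing section. The alternatives tried are listed with their effect in the closing section. Figures were drawn with matplotlib 3.10.9.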

Additional observations from a re-analysis of the deposited data

How the results depend on the processing

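With 4 arrays, limma called 0 genes in each alternative that kept all 4. These were quantile normalization, centring on array medians, 2 filters on dim genes (25% or 50% dropped), a variance prior without trend or made robust, averaging features, pseudocounts 1 and 32, a threshold of 0.10 and the replicate block. Pairing by replicate number with the block gave 0 genes and 0 kinesins called in limma, and a mitotic median of 0.19. Leaving out each array in turn gave 0 to 4935 genes and 0 to 11 kinesins called (0 without either siKLF7 array, 4 kinesins without replicate 1 of the scramble control and 11 without its replicate 2), a mitotic median of 0.18 to 0.36, a transport median of -0.081 to 0.015 and a difference of medians of 0.17 to 0.43. Without the dimmest 25% of genes the transport median was -0.081 and the difference 0.30. The mitotic median and the difference of medians stayed above 0 in each alternative run, with 4 arrays and against each control.

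Against scramble control replicate 2, 484 genes passed with quantile normalization and 172 with no trend, against 290. The transport median was -0.023 with quantile normalization, -0.036 with median centring and 0.052 without the dimmest 50% of genes, where the difference of medians was 0.29. With 1 siKLF7 array left out, a value with no test, the transport median was -0.046 to -0.0081. The number of kinesins called was 4, or 3 without the dimmest 50% of genes and with no trend.

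Against scramble control replicate 1, quantile normalization gave a mitotic median of 0.15 and a transport median of -0.11, and median centring a transport median of -0.11. Without the dimmest 25% of genes the transport median was -0.15 and the difference 0.34, and without the dimmest 50% 6 kinesins were called, against 11. With 1 siKLF7 array left out the mitotic median was 0.14 to 0.19, the transport median -0.11 to -0.048 and the difference 0.23 to 0.26. The cause of these shifts was not tested. Where a filter was used, fewer genes were tested.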
